A study of Mus musculus with 12 samples.

Results

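Scavenger and efferocytosis receptors are the surface molecules with which macrophages take up modified lipoproteins, microbes, debris and dying cells. The group described here holds 10 genes, chosen by name: the scavenger receptors Msr1, Marco, Cd36, Scarb1, Cd68 and Stab1, the receptor tyrosine kinases Mertk and Axl, their ligand Gas6, and Timd4. All 10 were found among the 23361 gene symbols of the expression tables, and 9 reached an expression level that could be tested. Timd4 did not.

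The RNA came from bone marrow-derived macrophages (BMDMs). Bone marrow precursors were cultured into these cells over 6 days with L929 supernatant, a source of the growth factor M-CSF. The mice were wild type, 8 to 12 weeks old and, per the study's methods, on the C57BL/6 background. Untreated BMDMs served as control, and the treated groups received 20 ng/ml IL-4 over 24 h (IL-4), 100 ng/ml LPS over 3 h (LPS), or the IL-4 treatment followed by the LPS treatment (IL-4+LPS), with 3 samples in each of the 4 groups. IL-4 is the cytokine that drives alternative polarization, LPS, from the outer membrane of bacteria, triggers an inflammatory response, and the 4 groups together ask how earlier IL-4 exposure alters the LPS response. The study describes these RNA samples as coming from individual animals in separate experiments, but the labels do not say which animal or experiment a replicate number marks, so p-values here measure the spread between these samples. The LPS dose is that of the labels, and the methods section gives LPS in a molar unit.

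Efferocytosis is the engulfment of dying cells, which display phosphatidylserine on their outer surface. Some receptors, such as Timd4 and Stab1, bind this lipid directly, whereas Mertk and Axl recognise it through the bridging protein Gas6. Scavenger receptors bind polyanionic ligands, oxidised lipids and lipoproteins, and resting tissue macrophages are known to rely on Mertk for clearance, whereas Axl is known as the kinase favoured in inflammatory settings.

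Levels are given as FPKM, the fragment count of a gene divided by its transcript length and by the library's mapped fragments. FPKM is a level per length, so that genes can be set side by side. Differences are log2 fold changes of FPKM + 1 from a limma model over all 12 samples, a scale that understates changes of low genes, with p-values adjusted by Benjamini-Hochberg over all 11191 rows tested and a threshold of 0.05. FPKM totals lay between 457583 and 495025, absolute depth was unknown, and relative depth, read from the steps between low values, ran from 0.991 to 3.30 with control replicate 1 set to 1. Replicate 1 stood apart in all 4 groups (Pearson r over the rows tested of 0.954 to 0.962 with the other replicates of its group, against 0.973 to 0.983 between those), so results that change with replicates 2 and 3 only are given with both values. All 8 macrophage markers looked for were at 1 FPKM or more, with Emr1, the gene of the F4/80 antigen, between 444 and 1188 FPKM, while T cell (0 of 4) and erythroid markers (0 of 3) did not reach 1 FPKM in any sample. Of 7 fibroblast markers 1 did, Pdgfrb, and its level stayed at or below 3.47 FPKM. Endothelial (2 of 5), B cell (1 of 4) and dendritic cell markers (1 of 4) each summed to at most 4.36 FPKM in any sample. Platelet markers summed to 97.6 to 502 FPKM, nearly all of it Pf4, and granulocyte markers are given beside Marco. The macrophage markers summed to 16325 to 19222 FPKM in control and LPS and to 6279 to 6659 FPKM in both groups with IL-4, most of it Lyz2. In bulk RNA, fewer cells of a type and less RNA per cell cannot be told apart.

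In control BMDMs the 10 genes covered a wide range of levels. Cd68, a lysosomal glycoprotein used as a macrophage marker, and Cd36, a fatty acid and oxidised lipoprotein receptor, were the most abundant at 1779 ± 144 and 1024 ± 93.6 FPKM (mean ± SD, n = 3). Stab1, Gas6 and Msr1 followed at 241 ± 12.6, 188 ± 9.32 and 133 ± 25.5 FPKM. Scarb1, Mertk, Marco and Axl lay at 40.2 ± 10.6, 31.9 ± 6.21, 13.7 ± 12.2 and 11.7 ± 2.36 FPKM. Timd4, which encodes the phosphatidylserine receptor TIM-4 of resident tissue macrophages, was listed at 0 in 4 of 12 samples, namely control replicate 1 and all IL-4 samples, and its highest value was 0.291 FPKM in LPS replicate 2. The ranges of the 3 control samples overlapped between Scarb1 and Mertk, Mertk and Marco, and Marco and Axl, so these neighbours did not differ beyond their spread.

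**Figure D1:**
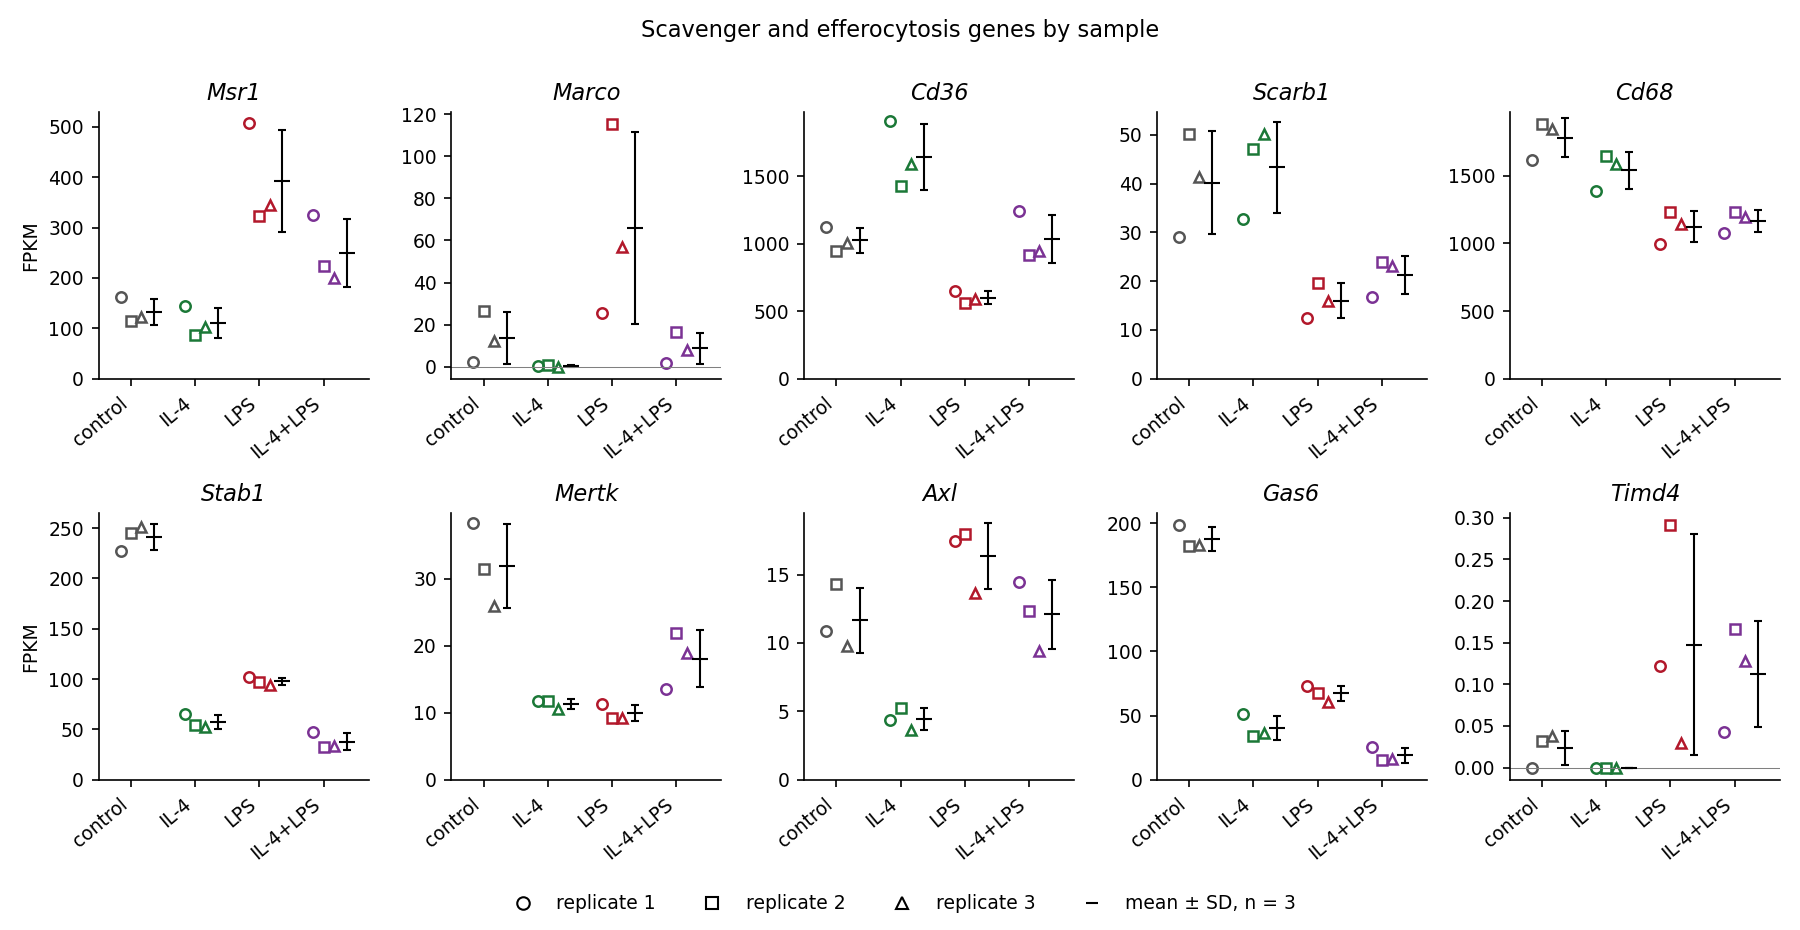
Level of each of the 10 genes in FPKM (vertical axis, its own scale per panel) in the 4 groups of BMDMs, with 1 symbol per sample and the mean ± SD of 3 samples to its right. Stab1 and Gas6 are highest in control and lowest in IL-4+LPS, Msr1 is highest in LPS, Cd36 is highest in IL-4, and Timd4 stays below 0.3 FPKM throughout.

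The bridging ligand was examined first. Gas6 binds phosphatidylserine at its Gla domain and activates Mertk and Axl at its other end. Its level was 199, 182 and 183 FPKM in control replicates 1 to 3, 51.0, 34.1 and 36.1 FPKM after IL-4, 73.3, 67.5 and 61.0 FPKM after LPS, and 25.8, 15.4 and 15.8 FPKM after IL-4 and LPS. No pair of groups overlapped, and the order from high to low was control, LPS, IL-4 and IL-4+LPS. LPS lowered Gas6 by -1.47 on the log2 scale (standard error 0.19, adjusted p = 4.83e-05), and IL-4 lowered it by -2.21 (standard error 0.19, adjusted p = 1.31e-05). LPS after IL-4 lowered it further, by -1.07 (adjusted p = 0.000551). The control mean was 9.89 times the IL-4+LPS mean, a log2 fold change of -3.28 (95% confidence interval -3.71 to -2.85, adjusted p = 1.25e-07). The LPS response of Gas6 after IL-4 minus that without IL-4, the interaction, was 0.41 (95% confidence interval -0.20 to 1.01, adjusted p = 0.422), so a difference between these responses was not detectable in the fit, although it passed the threshold with replicates 2 and 3 only (0.37, adjusted p = 0.0189, over all alternatives 0.0189 to 0.647).

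Stab1, which encodes stabilin-1, a scavenger and phosphatidylserine receptor of tissue and alternatively polarized macrophages, had the same order of groups as Gas6. Its level was 227, 245 and 251 FPKM in control, 65.0, 54.5 and 52.7 FPKM after IL-4, 102, 97.4 and 94.2 FPKM after LPS, and 47.6, 32.8 and 33.4 FPKM after both. Again no pair of groups overlapped. The log2 fold change was -1.29 for LPS (standard error 0.13, adjusted p = 7.65e-06), -2.06 for IL-4 (standard error 0.13, adjusted p = 1.66e-06) and -2.66 for IL-4+LPS against control (standard error 0.13, adjusted p = 3.91e-08). LPS after IL-4 gave -0.60 (adjusted p = 0.00203) against a median of -0.41 over all rows, and the call was lost after median scaling (-0.24, adjusted p = 0.114, over all alternatives 6.99e-06 to 0.114). The interaction was 0.69 (95% confidence interval 0.28 to 1.11, adjusted p = 0.0448), the LPS decrease being smaller after IL-4, and 8 of 12 fits that left out 1 sample lost this call, those without any 1 of the 3 control or 3 LPS samples or without IL-4 replicate 2 or 3 (adjusted p from 0.0544 to 0.112, over all alternatives 0.000452 to 0.112). Across the 12 samples, the row most like Stab1 among all 11191 was Gas6, with a Pearson r of 0.992 on the log2(FPKM + 1) scale. Atp8b4 (r = 0.994) and Stab1 were the rows most like Gas6, and Abcc3 (r = 0.991) came after Gas6 for Stab1. These r values are descriptions over samples that share their treatments.

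The 250 bases before the RefSeq start of Stab1 and Gas6 are shown because their levels ran in parallel over the 12 samples, with letters in capitals where they match a searched motif. Stab1 lies on the minus strand of chromosome 14 and Gas6 on the minus strand of chromosome 8 (GRCm38.p6, windows chr14:31168642-31168891 and chr8:13494536-13494785), and both are read 5′ to 3′ towards the gene.
Stab1: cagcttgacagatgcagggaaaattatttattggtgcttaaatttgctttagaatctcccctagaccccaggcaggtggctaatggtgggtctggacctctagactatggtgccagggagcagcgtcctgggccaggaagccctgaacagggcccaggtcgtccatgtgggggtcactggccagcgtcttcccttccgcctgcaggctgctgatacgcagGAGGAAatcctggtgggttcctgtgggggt
Gas6: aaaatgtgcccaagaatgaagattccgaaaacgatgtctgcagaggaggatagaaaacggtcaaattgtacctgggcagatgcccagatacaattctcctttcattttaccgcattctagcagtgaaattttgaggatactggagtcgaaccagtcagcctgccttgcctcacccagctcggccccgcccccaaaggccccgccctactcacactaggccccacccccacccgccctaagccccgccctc
Of the 7 motifs searched on both strands, the Stab1 window held GAGGAA, the core bound by the macrophage factor PU.1, at 30 to 25 bases before the start, a match found in 23.25% of 32851 mouse promoter windows of the same length. The Gas6 window held none of the 7. The other motifs were the STAT motif, which is TTC and GAA with either 4 or 3 free bases between them (in 5.854% and 7.02% of windows), the NF-kB motif, which is GGG and TTTCC with 2 free bases between them (1.412%), TGANTCA for AP-1, where N is any base (6.749%), the interferon response element, which is TTTC repeated after 2 free bases (2.977%), and AGGTCA for nuclear receptors (14.02%). A match is a description of letters and not a site.

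Mertk and Axl are related receptor tyrosine kinases that bind Gas6. Mertk was at 38.3, 31.5 and 25.9 FPKM in control, 11.7, 11.7 and 10.5 FPKM after IL-4, 11.3, 9.24 and 9.19 FPKM after LPS, and 13.5, 21.9 and 18.8 FPKM after both. All control samples were above all others, the IL-4 and LPS samples overlapped, and all IL-4+LPS samples were above both single treatments. Either stimulus alone lowered Mertk, LPS by -1.58 on the log2 scale (standard error 0.17, adjusted p = 1.28e-05) and IL-4 by -1.40 (standard error 0.17, adjusted p = 0.000155). After IL-4, LPS raised Mertk by 0.61 (standard error 0.17, adjusted p = 0.00899), a call that a Tukey test per gene narrowly missed (adjusted p = 0.0503, over all alternatives 0.000381 to 0.0503). The interaction, a test of the difference itself, was 2.19 (standard error 0.25, 95% confidence interval 1.65 to 2.74, adjusted p = 0.000569), with the same sign in 3 of 3 replicate numbers. It passed the threshold in all 20 alternative fits, from 2.05 to 2.37 (adjusted p from 0.00015 to 0.00272). The level in IL-4+LPS remained below control (-0.79, adjusted p = 0.00171), a call lost after median scaling (-0.42, adjusted p = 0.0647, over all alternatives 0.000978 to 0.0647).

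Axl followed another order. It was at 10.9, 14.3 and 9.78 FPKM in control, 4.38, 5.26 and 3.64 FPKM after IL-4, 17.5, 18.0 and 13.6 FPKM after LPS, and 14.5, 12.3 and 9.43 FPKM after both. All IL-4 samples were below all others, while the ranges of control, LPS and IL-4+LPS overlapped. IL-4 lowered Axl by -1.22 (standard error 0.18, adjusted p = 0.00054), and LPS after IL-4 raised it by 1.26 (standard error 0.18, adjusted p = 0.000112). The increase with LPS alone was 0.46 (standard error 0.18, adjusted p = 0.0399) and rested on few samples. It was 0.37 with replicates 2 and 3 only (adjusted p = 0.176, over all alternatives 0.00211 to 0.176), and 6 of 12 fits without 1 sample lost it, those without control replicate 1 or 3, LPS replicate 1 or 2, IL-4 replicate 1 or IL-4+LPS replicate 2. IL-4+LPS did not differ detectably from control (0.05, 95% confidence interval -0.36 to 0.45). The interaction was 0.80 (95% confidence interval 0.23 to 1.37, adjusted p = 0.0834) and did not pass the threshold in the fit without a replicate term.

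The promoter windows of Mertk, on the plus strand of chromosome 2 (chr2:128698665-128698914), and of Axl, on the minus strand of chromosome 7 (chr7:25788734-25788983), are printed because these related kinases took different orders of groups. With LPS alone, Mertk was called lower and Axl higher in the fit as reported, the Axl call resting on few samples.
Mertk: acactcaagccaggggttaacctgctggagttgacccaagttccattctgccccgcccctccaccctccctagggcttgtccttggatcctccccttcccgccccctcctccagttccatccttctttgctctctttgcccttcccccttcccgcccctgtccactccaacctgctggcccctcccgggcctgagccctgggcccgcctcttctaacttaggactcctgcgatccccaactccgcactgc
Axl: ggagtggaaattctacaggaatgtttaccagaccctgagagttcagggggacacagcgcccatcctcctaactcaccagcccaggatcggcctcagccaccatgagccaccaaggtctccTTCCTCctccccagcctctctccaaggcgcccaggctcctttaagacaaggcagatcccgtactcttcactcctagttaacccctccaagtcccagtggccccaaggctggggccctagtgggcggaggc
The Axl window held TTCCTC, which is GAGGAA on the other strand, at 130 to 125 bases before the start. No match to the 7 motifs was found in the Mertk window.

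The proportion of both kinases was then compared by sample. Axl FPKM divided by Mertk FPKM was 0.284, 0.454 and 0.378 in control and 0.374, 0.449 and 0.347 in IL-4. It was 1.55, 1.95 and 1.48 in LPS, the group in which Axl exceeded Mertk in every sample. In IL-4+LPS it was 1.07, 0.564 and 0.501, so that Axl exceeded Mertk in replicate 1 but not in replicates 2 and 3. Group means were 0.372 ± 0.0854, 0.390 ± 0.0530, 1.66 ± 0.250 and 0.712 ± 0.313 (mean ± SD, n = 3) in the same order. IL-4 and control overlapped, and LPS stood above all other samples. Gas6 RNA relative to receptor RNA was taken as Gas6 FPKM over the sum of Axl and Mertk FPKM. This ratio was 4.38 ± 0.645 in control, 2.58 ± 0.584 after IL-4, 2.57 ± 0.0967 after LPS and 0.644 ± 0.247 after both. Receptor transcripts thus outnumbered those of Gas6 per length in all IL-4+LPS samples (0.921, 0.450 and 0.560) and in no other sample. Pros1, the other ligand of Mertk, is left out of this ratio and was at 21.1, 23.3 and 23.8 FPKM in IL-4+LPS. These ratios are descriptions, given without a test.

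**Figure D2:**
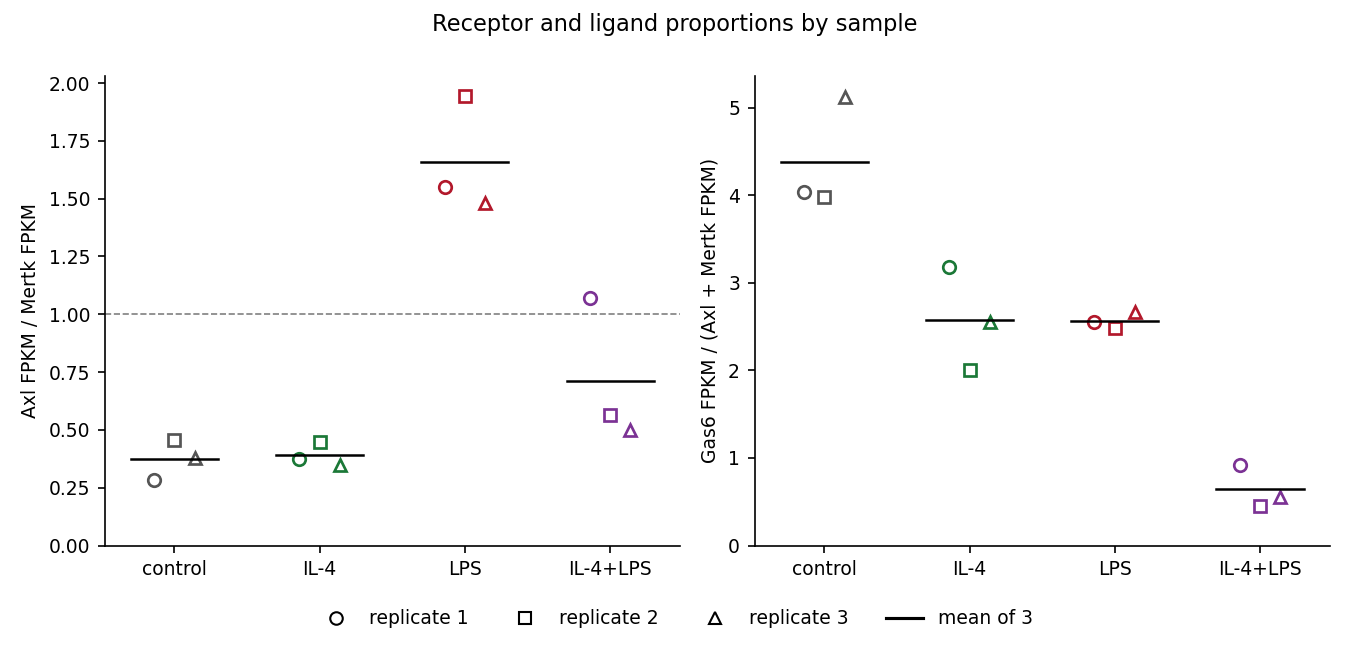
Axl FPKM divided by Mertk FPKM (left, dashed line at 1) and Gas6 FPKM divided by the sum of Axl and Mertk FPKM (right) in each sample, with 1 symbol per sample and a line at the mean of 3. LPS samples lie at 1.48 to 1.95 on the left, above all others, and IL-4+LPS samples lie below 1 on the right.

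Class A scavenger receptors bind polyanionic ligands such as modified lipoproteins and bacterial surfaces. Msr1, the macrophage scavenger receptor SR-A, was at 162, 115 and 122 FPKM in control, 145, 86.6 and 103 FPKM after IL-4, 508, 323 and 344 FPKM after LPS, and 326, 224 and 199 FPKM after both. Both LPS-treated groups were above both groups without LPS, and replicate 1 was the highest sample of each of the 4 groups. LPS raised Msr1 by 1.54 (standard error 0.25, adjusted p = 0.000217), to 2.95 times the control mean, and LPS after IL-4 raised it by 1.16 (standard error 0.25, adjusted p = 0.00167). IL-4 alone gave -0.27 (95% confidence interval -0.82 to 0.28, adjusted p = 0.437), which passed with replicates 2 and 3 only (-0.32, adjusted p = 0.0262, over all alternatives 0.0159 to 0.821). IL-4+LPS against LPS gave -0.65 (95% confidence interval -1.20 to -0.10, adjusted p = 0.0736), which likewise passed with replicates 2 and 3 only (-0.65, adjusted p = 0.00148, over all alternatives 0.000177 to 0.235).

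Marco, a class A receptor for bacteria and particles, varied widely within groups. It was at 2.10, 26.5 and 12.4 FPKM in control, 0.188, 0.604 and 0.0536 FPKM after IL-4, 25.5, 115 and 56.8 FPKM after LPS, and 1.79, 16.3 and 7.97 FPKM after both. All IL-4 samples were below all other samples, whereas control overlapped with both LPS and IL-4+LPS. IL-4 lowered Marco by -3.05 (standard error 0.85, adjusted p = 0.0173), and LPS raised it both without IL-4 (2.43, standard error 0.85, adjusted p = 0.0236) and after IL-4 (2.58, standard error 0.85, adjusted p = 0.0182). IL-4+LPS was lower than LPS by -2.89 (standard error 0.85, adjusted p = 0.0255). These calls were each lost without certain single libraries: the LPS call without control replicate 1 (1.55, adjusted p = 0.0948, over all alternatives 0.000775 to 0.132) or LPS replicate 2 or 3, and the IL-4 call without control replicate 2 or 3 or IL-4 replicate 3 (adjusted p from 0.0544 to 0.0663). The call after IL-4 was lost without IL-4 replicate 3 or IL-4+LPS replicate 2 or 3 (adjusted p from 0.0509 to 0.0752), and that against LPS without LPS replicate 2 or 3 or IL-4+LPS replicate 1 or 3 (adjusted p from 0.0547 to 0.0904).

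Markers of granulocytes and their precursors also varied between replicates, and within most groups they ranked the samples as Marco did. The 6 such genes found (Mpo, Elane, Ngp, Camp, S100a8 and S100a9) summed to 364, 946 and 672 FPKM in control replicates 1 to 3, 231, 439 and 299 FPKM after IL-4, 556, 1146 and 929 FPKM after LPS and 459, 926 and 648 FPKM after both. All 6 genes were lowest in replicate 1 in every group. S100a8 and S100a9 made up most of the sum, and the genes of this list did not all move alike between groups. Mpo was at 3.34, 7.52 and 5.52 FPKM in control, 1.75, 4.90 and 3.12 FPKM after LPS and 3.19, 7.31 and 5.83 FPKM after both. Elane ranged from 4.41 to 6.25 FPKM in control, and in replicate 1 it went from 4.41 FPKM to 1.57 FPKM after LPS and 2.23 FPKM after both. Mpo and Elane were lower after LPS and higher after both stimuli than after LPS in each replicate number, the reverse of Marco. Ngp, Camp, S100a8 and S100a9 went the way of Marco in each replicate number, higher after LPS and lower after both stimuli than after LPS. After IL-4 alone, Ngp, Camp, S100a8 and S100a9 were also below control in each replicate number, as Marco was. Mpo and Elane were below control in replicates 1 and 3 after IL-4. In replicate 2 they were above it, at 8.29 against 7.52 FPKM for Mpo and 6.72 against 6.25 FPKM for Elane. Ngp was at 50.4, 107 and 73.0 FPKM in control, 54.4, 130 and 93.1 FPKM after LPS and 38.7, 89.9 and 62.6 FPKM after both. Camp was at 6.73, 21.4 and 18.2 FPKM, 14.5, 41.0 and 28.4 FPKM, and 7.22, 23.4 and 14.7 FPKM in the same order. In control, LPS and IL-4+LPS, Marco took the same order of samples as this sum, with replicate 1 lowest and replicate 2 highest, and in IL-4 replicate 3 was the lowest for Marco but replicate 1 for the sum. The highest Marco value was 12.6, 11.3, 4.53 and 9.12 times the lowest in control and after IL-4, LPS and both, against 2.60, 1.90, 2.06 and 2.02 times for the sum. The part of such cells in the Marco result was not tested.

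**Figure D3:**
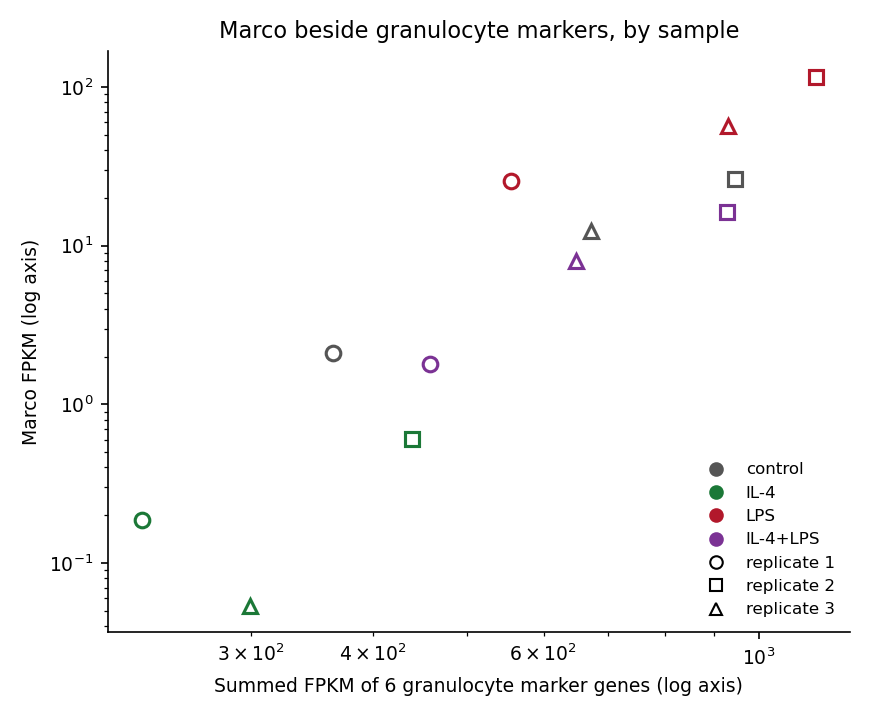
Marco level in FPKM (vertical, log axis) against the summed FPKM of 6 granulocyte marker genes (horizontal, log axis), with 1 symbol per sample, colours for the 4 groups and shapes for the replicate number. Replicate 1 has the lowest granulocyte sum of each group, and the IL-4 samples have the lowest Marco values, all below 1 FPKM.

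The Marco window (minus strand, chr1:120505025-120505274) is shown because it alone among the 8 members with a RefSeq window matched the NF-kB motif.
Marco: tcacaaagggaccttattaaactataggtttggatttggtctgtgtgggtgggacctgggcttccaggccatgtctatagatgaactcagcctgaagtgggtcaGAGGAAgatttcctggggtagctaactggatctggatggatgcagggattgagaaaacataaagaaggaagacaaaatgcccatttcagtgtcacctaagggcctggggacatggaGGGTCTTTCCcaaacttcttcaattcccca
The match GGGTCTTTCC lay at 30 to 21 bases before the RefSeq start, and GAGGAA at 146 to 141 bases before it. The deposited locus of Marco ran further, to 120505084, so the GGGTCTTTCC match fell inside that locus. Among the other windows, Cd68 held TGAGTCA at 149 to 143 and 24 to 18 bases and GAGGAA at 225 to 220 bases, and AGGTCA was held by Timd4 and, as TGACCT on the other strand, by Cd36. None of the 8 windows held a STAT or interferon response element motif. Msr1 and Scarb1 had no window in the table used here.

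Class B receptors bind lipoproteins and fatty acids. Cd36 was at 1126, 943 and 1002 FPKM in control, 1906, 1430.3 and 1587 FPKM after IL-4, 653, 559 and 589.9 FPKM after LPS, and 1239.7, 919 and 943 FPKM after both. It was highest after IL-4 and lowest after LPS without overlap, and the IL-4+LPS samples overlapped with control. IL-4 raised it by 0.67 (standard error 0.14, adjusted p = 0.0035), LPS lowered it by -0.77 (standard error 0.14, adjusted p = 0.000463), and LPS after IL-4 lowered it by -0.67 (standard error 0.14, adjusted p = 0.00128). IL-4+LPS minus control was 0.0049 (95% confidence interval -0.30 to 0.31), and the interaction was 0.10 (95% confidence interval -0.33 to 0.53). The IL-4 increase missed the threshold after quantile normalization (0.48, adjusted p = 0.0578, over all alternatives 2.28e-05 to 0.0578), and the decrease after IL-4 missed it after median scaling (-0.31, adjusted p = 0.0767, over all alternatives 6.82e-06 to 0.0767).

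Scarb1, the HDL receptor SR-BI, was at 29.1, 50.1 and 41.4 FPKM in control, 32.7, 47.0 and 50.2 FPKM after IL-4, 12.4, 19.7 and 15.9 FPKM after LPS, and 16.8, 24.0 and 23.0 FPKM after both. Samples with LPS were all below samples without it, and within each of these sets the groups with and without IL-4 overlapped. LPS lowered Scarb1 by -1.26 (standard error 0.24, adjusted p = 0.000635) and, after IL-4, by -0.98 (standard error 0.24, adjusted p = 0.0035). IL-4 alone gave 0.11 (95% confidence interval -0.41 to 0.64), and IL-4+LPS minus LPS gave 0.40 (95% confidence interval -0.13 to 0.92, adjusted p = 0.245).

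Cd68 had the same division by LPS. It was at 1615, 1881 and 1842 FPKM in control, 1384, 1644 and 1587 FPKM after IL-4, 998, 1231 and 1143 FPKM after LPS, and 1076, 1232 and 1197 FPKM after both. LPS lowered it by -0.66 (standard error 0.10, adjusted p = 0.000166). IL-4 alone gave -0.21 (95% confidence interval -0.44 to 0.02, adjusted p = 0.14), which passed with replicates 2 and 3 only (-0.20, adjusted p = 0.0115, over all alternatives 0.00121 to 0.352). The decrease with LPS after IL-4 (-0.40, adjusted p = 0.00553) was about the size of the median of all rows in that contrast, -0.41, and was -0.03 after median scaling (adjusted p = 0.821, over all alternatives 9.87e-06 to 0.821).

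Counted together, LPS against control raised 3 of the 9 genes tested (Msr1, Marco and Axl) and lowered 6 (Cd36, Scarb1, Cd68, Stab1, Mertk and Gas6). Of all 11191 rows tested, 74.6% were called in this contrast, 16.9% higher and 57.7% lower, so that decreases were common among all genes. The median log2 fold change was -0.77 over the 9 genes and -0.44 over all rows. Relative to the latter, the 6 decreases ran from -0.22 for Cd68 and -0.32 for Cd36 to -1.14 for Mertk. Scaling mattered for the genes at large: 22.6% of all calls were higher in the fit as reported, 40.2% after quantile normalization and 39.97% after median scaling, where the median of all rows was -0.12 and -0.14. All 9 genes kept their call under both scalings.

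IL-4 against control raised 1 of the 9 genes (Cd36) and lowered 5 (Marco, Stab1, Mertk, Axl and Gas6), while Msr1, Scarb1 and Cd68 did not pass. Of all rows 37% were called, 16% higher and 21% lower. The median was -1.22 over the 9 genes and -0.05 over all rows. With replicates 2 and 3 only, 7 genes were called lower, Msr1 and Cd68 being added.

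**Figure D4:**
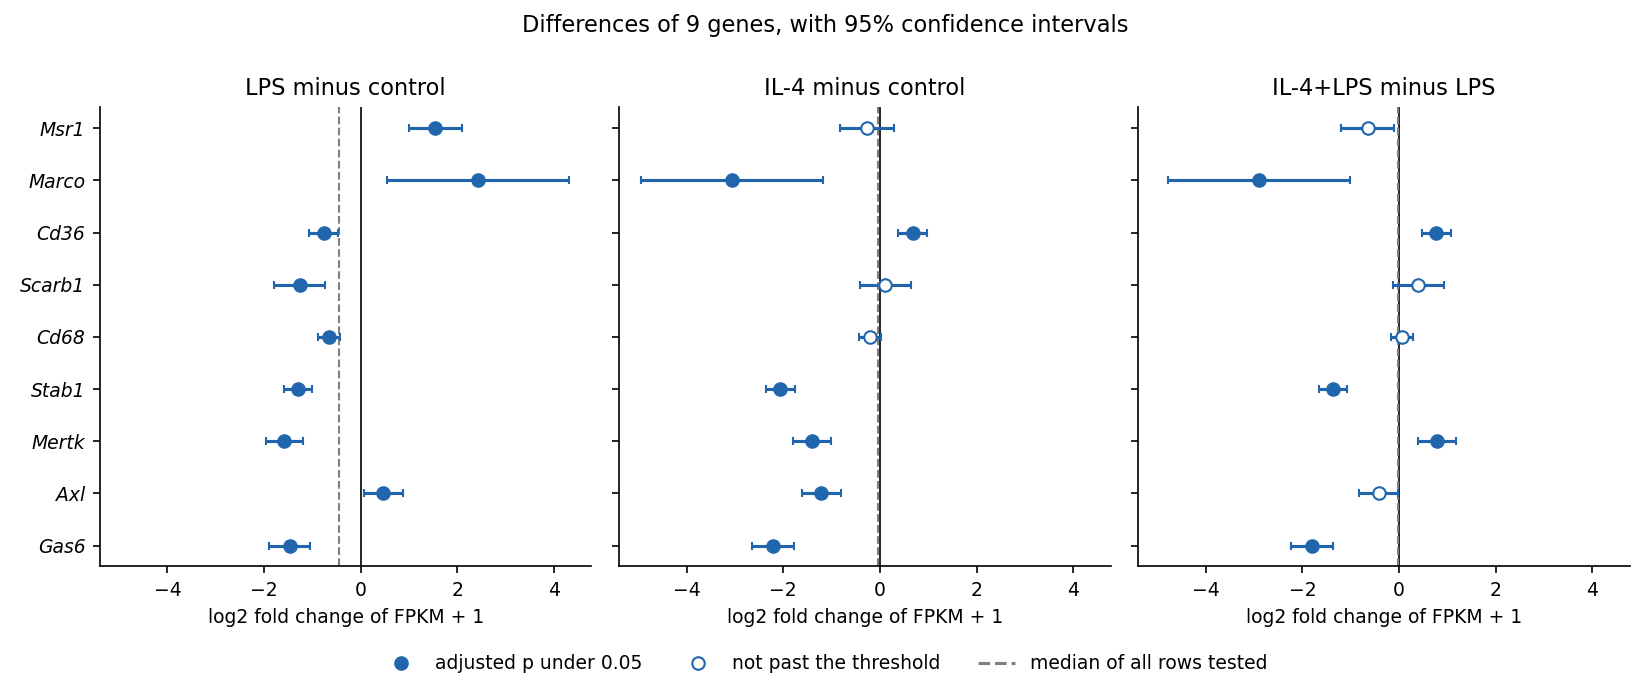
Log2 fold change of FPKM + 1 with its 95% confidence interval (horizontal axis) for 9 genes, with panels for LPS minus control, for IL-4 minus control, and for IL-4+LPS minus LPS. Filled points passed an adjusted p of 0.05, and the dashed line is the median of all 11191 rows, which lies at -0.44 for LPS and near 0 for the others.

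When LPS was given after IL-4, 4 genes were higher than with IL-4 alone (Msr1, Marco, Mertk and Axl) and 5 were lower (Cd36, Scarb1, Cd68, Stab1 and Gas6), with 72.9% of all rows called, 15% higher and 57.9% lower. The medians were -0.40 for the 9 genes and -0.41 for all rows. Higher calls among all rows were 20.6% of calls as reported, 37.1% after quantile normalization and 39.3% after median scaling. After median scaling only Scarb1 and Gas6 remained called among the 5 decreases. Both LPS contrasts share their design but not their samples, and Mertk was the gene that changed sides, as its interaction above shows.

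IL-4+LPS against LPS gave 2 higher genes (Cd36 and Mertk) and 3 lower ones (Marco, Stab1 and Gas6), against 30.9% of all rows called, 15% higher and 15.8% lower. The medians were -0.42 and -0.03. Cd36 was higher by 0.77 (standard error 0.14, adjusted p = 0.0018) and Mertk by 0.79 (standard error 0.17, adjusted p = 0.00614), with all IL-4+LPS samples above all LPS samples for each. Stab1 was lower by -1.36 (standard error 0.13, adjusted p = 3.02e-05) and Gas6 by -1.81 (standard error 0.19, adjusted p = 5.75e-05). With replicates 2 and 3 only, 3 were higher and 4 lower, Scarb1 (0.39, adjusted p = 0.0341, over all alternatives 0.00401 to 0.551) and Msr1 being added. In the fit as reported Msr1, Scarb1, Cd68 and Axl did not pass, the interval for Cd68 running from -0.17 to 0.29.

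IL-4+LPS against control gave 1 higher gene (Msr1, 0.89, adjusted p = 0.00754) and 5 lower ones (Scarb1, Cd68, Stab1, Mertk and Gas6), against 74.3% of all rows called, 17.9% higher and 56.4% lower. The medians were -0.61 and -0.43. Of all calls 24.1% were higher as reported, 42.6% after quantile normalization and 42.5% after median scaling. Stab1 and Gas6 kept their call under both scalings, while Scarb1, Cd68 and Mertk lost theirs after median scaling and Msr1 lost its call after quantile normalization (0.64, adjusted p = 0.0608, over all alternatives 5.71e-06 to 0.0608). This contrast, the IL-4 contrast and the LPS contrast share the control samples.

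The interaction was called for 2 of the 9 genes, Mertk and Stab1, both higher, against 9.2% of all rows called, 4.58% higher and 4.63% lower. No member was called lower by limma in the fit as reported, and 3 were higher and 0 lower at an unadjusted p under 0.05, Axl being the other one. The median was 0.28 over the 9 genes and 0.04 over all rows. With replicates 2 and 3 only, 4 genes were called higher, Mertk and Stab1 together with Cd68 (0.24, adjusted p = 0.0436, over all alternatives 0.00707 to 0.490) and Gas6.

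**Figure D5:**
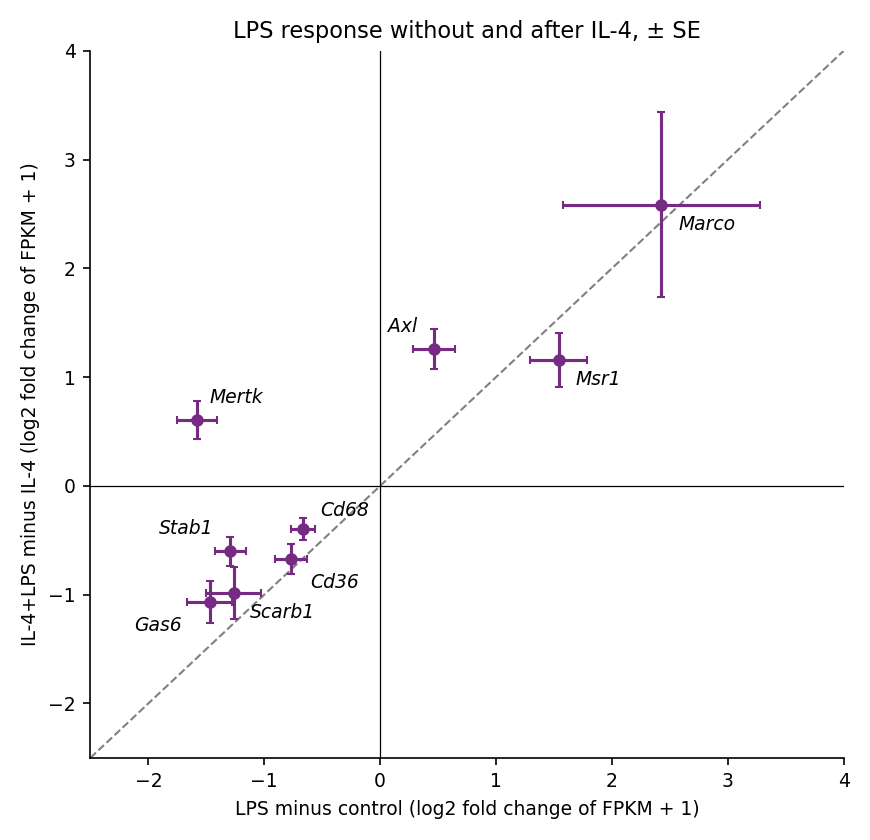
LPS response after IL-4 (vertical) against the LPS response without IL-4 (horizontal), both as log2 fold changes of FPKM + 1 with standard errors, for 9 genes, with a dashed line where the responses are equal. Mertk lies in the upper left, at -1.58 and 0.61, Stab1 lies above the line at -1.29 and -0.60, and the intervals of Marco are the widest.

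The wider clearance pathway was read from a list of 50 other genes, all found in the tables, of which 39 could be tested. LPS raised 8 and lowered 23 of them, where 16.9% of all rows rose and 57.7% fell, with a median of -0.40 against -0.44 for all rows. After median scaling, 12 were higher and 14 lower. The largest increases were those of Olr1, the lectin-like oxidised LDL receptor (2.76, adjusted p = 6.67e-08), Itgav, the alpha-v integrin chain that binds opsonised dying cells (2.19, adjusted p = 3.57e-06), and Xkr8, a scramblase that exposes phosphatidylserine (2.09, adjusted p = 2.82e-08). The largest decreases were those of the phosphatidylserine receptors Cd300a (-1.99, adjusted p = 2.67e-07) and Havcr2, which encodes TIM-3 (-1.61, adjusted p = 3.83e-06), and of the engulfment adaptor Elmo2 (-1.58, adjusted p = 3.16e-06). Among 15 phosphatidylserine receptors and bridging molecules 1 rose and 11 fell, among 9 other scavenger receptors 3 rose and 6 fell, and among 15 engulfment genes 4 rose and 6 fell. Olr1 was at 0.0247, 0.0370 and 0.0899 FPKM in control and 5.27, 6.75 and 6.40 FPKM in LPS, without overlap.

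IL-4 raised 10 and lowered 15 of the 39 genes, where 16% of all rows rose and 21% fell, with a median of -0.31 against -0.05. Among the phosphatidylserine receptors and bridging molecules 6 rose and 5 fell, among the scavenger receptors 2 rose and 6 fell, and among the engulfment genes 2 rose and 4 fell. Itgb3, the integrin chain that pairs with Itgav, rose by 2.11 (adjusted p = 2.61e-06), Elmo2 by 1.06 (adjusted p = 0.000267) and Anxa1, a phosphatidylserine-binding annexin, by 0.91 (adjusted p = 0.000178). Thbs1, encoding thrombospondin 1, which bridges dying cells to Cd36 and alpha-v integrins, fell by 4.10 on the log2 scale (adjusted p = 3.37e-06), from 42.5, 20.1 and 27.9 FPKM in control to 1.32, 0.510 and 0.486 FPKM. Cd5l, a secreted scavenger receptor family protein, fell by 2.25 (adjusted p = 5.41e-05) and Cxcl16, a chemokine that also serves as a scavenger receptor, fell by 1.75 (adjusted p = 8.68e-06). The bridging proteins did not move as a set. Mfge8, which links phosphatidylserine to alpha-v integrins, was at 107, 104 and 90.5 FPKM in control and 154, 168 and 145 FPKM in IL-4, a log2 fold change of 0.63 (adjusted p = 0.000194), and Pros1, the other ligand of Mertk, rose by 0.59 (adjusted p = 0.000322), whereas Gas6 fell. Tyro3, the kinase related to Mertk and Axl, did not reach 1 FPKM in any sample. Mfge8 and Pros1 were chosen after their values were seen.

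When IL-4 came before LPS, 9 of the 39 genes were higher and 18 lower than with IL-4 alone, where 15% of all rows were higher and 57.9% lower, with medians of -0.25 and -0.41. This balance turned after median scaling, to 15 higher and 11 lower. Olr1 (3.00, adjusted p = 4.12e-08), Cxcl16 (2.77, adjusted p = 7.85e-08) and Xkr8 (2.43, adjusted p = 1.26e-08) were highest, and Elmo2 (-1.95), Itgb3 (-1.78) and Cd300a (-1.68) were lowest. Against LPS alone, 10 were higher and 12 lower (15% and 15.8% of all rows), with Itgb3 (1.70), the calreticulin gene Calr (0.96) and Olr1 (0.83) at the top and Cd5l (-2.04), Thbs1 (-1.39) and the kinase Ptk2b (-0.69) at the bottom. Against control, 10 were higher and 22 lower (17.9% and 56.4% of all rows), or 15 and 13 after median scaling, led by Olr1 (3.59), Xkr8 (2.40) and Itgav (1.87) and by Cd5l (-2.75), Thbs1 (-2.48) and Cd300a (-2.01). The interaction was called for 3 genes, all higher: Thbs1 (2.71, adjusted p = 0.00278), Cxcl16 (1.52, adjusted p = 0.00139) and Scarb2 (0.55, adjusted p = 0.0195). The Scarb2 call was not kept in every alternative (adjusted p over all alternatives 0.00567 to 0.0571). No gene of the list was called lower by limma in the fit as reported, against 8 higher and 3 lower at an unadjusted p under 0.05. With replicates 2 and 3 only, 8 were called higher and 3 lower after adjustment. Thbs1 fell with LPS alone (-1.09, adjusted p = 0.00641) and rose with LPS after IL-4 (1.62, adjusted p = 0.000564). The difference with LPS alone was -0.54 with replicates 2 and 3 only (adjusted p = 0.0134), and its call was lost after median scaling (-0.74, adjusted p = 0.0531), with a range over all alternatives of 0.00269 to 0.0531.

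The rows most like each of the other members over the 12 samples were named by the highest Pearson r on the log2(FPKM + 1) scale, as a description. For Mertk these were Ing1 (r = 0.954) and 2210417K05Rik (r = 0.943), the lowest top values of the 9 genes. For Axl they were Rasa4 (0.961) and Zmynd15 (0.955), for Marco Dmwd (0.974) and Stom (0.966), and for Msr1 Zfp800 (0.988) and Sppl2a (0.987). For Cd36 they were Mtx2 (0.989) and Oxct1 (0.986), for Scarb1 Syngr1 (0.993) and Pigt (0.992), and for Cd68 Impa2 (0.989) and Mob3a (0.988). The samples share their treatments and replicate numbers, so likeness follows the 4 groups in part.

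All 10 members are protein-coding genes, and the locus given for each in the tables overlaps the GENCODE gene of that symbol on the GRCm38 assembly. Exonic sequence is shared with a gene on the opposite strand for Stab1 (112 bases with Nt5dc2, 1.09% of its exonic bases) and Gas6 (34 bases with Tmem255b, 1.33%), where reads of unstranded libraries cannot be assigned. Of the 50-base words of the longest transcript of each gene, 0.197% for Scarb1 and 0 for the other 9 genes occurred in transcripts of another gene. Words were compared in the direction of the transcript only. In mm10, Mertk lies at 128698997 to 128802188 of chromosome 2, Axl at 25756500 to 25788733 of chromosome 7, Gas6 at 13465374 to 13494535 of chromosome 8, Stab1 at 31139017 to 31168641 of chromosome 14, and Marco at 120474538 to 120505084 of chromosome 1. Msr1 lies at 39581700 to 39642678 of chromosome 8, Cd36 at 17781690 to 17888959 and Scarb1 at 125277087 to 125341094 of chromosome 5, and Cd68 at 69664371 to 69666062 and Timd4 at 46810799 to 46844333 of chromosome 11.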

How the data were processed

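RNA-seq libraries from 12 BMDM samples, 3 in each of 4 groups, were analysed from 1 deposited table per sample. Per the labels and the methods section, the authors made unstranded TruSeq libraries from poly-A RNA, sequenced paired 100-base reads, mapped them to mm10 with TopHat2 2.0.7 and computed FPKM values with Cufflinks 2.0.2 (versions from the submitters' processing notes). The deposited FPKM values are relative to the mapped fragments of each sample, so a shift in RNA composition moves all other genes, and fragment counts were not used here. The annotation was not given in the sources used here.

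Tables were joined over 23847 rows. Rows with at least 1 FPKM in at least 1 sample (11191) were transformed to log2(FPKM + 1) and fitted with a group-means model over all 12 samples in limma 3.58.1 (R 4.3.3, eBayes with an intensity trend). Tests were two-sided, with Benjamini-Hochberg adjustment within each contrast. The script was tested on simulated data. Alternatives were a pseudocount of 0.1, no filter, a filter of at least 3 samples, quantile normalization, median scaling, no intensity trend, only the compared groups, the replicate number as a block, replicates 2 and 3 only, a Tukey test per gene, and each sample left out in turn. The members, the list of 50 genes, the markers and the motifs were chosen with earlier results of these data known. The text names all members, the 3 called genes of the wider list that rose most and the 3 that fell most in each contrast, and the 2 rows most like each member. Promoter windows came from RefSeq (GRCm38.p6), where 8 of 10 members matched, and gene models from GENCODE vM21. The files' starts were given a count from 1. Python 3.11.15 with matplotlib 3.10.9 drew the figures.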

Additional observations from a re-analysis of the deposited data

Results flagged for a closer look

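The LPS response of 2 genes differed between BMDMs with and without earlier IL-4, by the limma test of the interaction over all rows. For Mertk the difference was 2.19 on the log2 scale (standard error 0.25, adjusted p = 0.000569), with LPS minus control at -1.58 and IL-4+LPS minus IL-4 at 0.61. For Stab1 it was 0.69 (standard error 0.19, adjusted p = 0.0448), with -1.29 and -0.60. The Mertk difference passed the threshold in 20 of 20 alternative fits, and that of Stab1 in 10 of 20, where the adjusted p ran from 0.000452 to 0.112. Each had the same sign in 3 of 3 replicate numbers.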

How the results depend on the processing

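Of 1170 values of members under the alternatives, 1089 kept their direction and their side of the threshold, 46 no longer passed, 16 newly passed and 19 changed sign. Of the 37 values called in the fit as reported, 0 changed sign. Changes of sign were found among values not called, and the cause was not tested. Their ranges without 1 sample were -0.095 to 0.30 for Scarb1 in IL-4 minus control, -0.025 to 0.13 for Cd68 in IL-4+LPS minus LPS, -1.34 to 0.25 for Marco, -0.13 to 0.083 for Cd36 and -0.086 to 0.20 for Axl in IL-4+LPS minus control, and -0.54 to 1.03 for Marco and -0.040 to 0.21 for Cd36 in the interaction. Quantile normalization gave -0.070 for Cd68 and -0.31 for Cd36, and replicates 2 and 3 only gave -0.062 for Cd36 and -0.12 for Axl, in the same contrasts. Without single samples, the number of genes higher was 1 to 3 with LPS, the low value without control replicate 1 or LPS replicate 2, and 1 to 2 in the interaction, where Stab1 was lost. The Tukey test per gene gave 1 higher gene with LPS, 2 in IL-4+LPS minus IL-4 and 0 in IL-4+LPS minus control. Quantile normalization gave 0 higher genes with IL-4 and 0 in IL-4+LPS minus control. Median scaling gave 2 lower genes in IL-4+LPS minus IL-4, and 2 higher and 2 lower in IL-4+LPS minus control, with Cd36 added above control (0.39, adjusted p = 0.025), and it moved the wider list from 23 to 14 lower genes with LPS. In the interaction, the pseudocount of 0.1 and the fit with no filter each gave 1 higher gene, and replicates 2 and 3 only gave 4. With the replicate number as a block, 4 genes were higher and 1 lower in the interaction (Mertk, Stab1, Axl and Cd68, and Msr1), 5 were lower in IL-4+LPS minus LPS, and 7 in IL-4 minus control. For Axl the block gave adjusted p = 0.00625 in the interaction and 0.00914 in IL-4+LPS minus LPS. In the wider list the block gave 9 higher and 2 lower genes in the interaction. Deviations of samples with the same number correlated at 0.0024 to 0.386 (mean 0.124, 18 pairs), and 7 of 12 samples correlated best with their own number, so the lowest correlation was near 0 and the numbers were not treated as pairs. Absolute depth is unknown, and low values such as those of Timd4 cannot be ranked.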
